A study of Mus musculus with 6 samples.

Results

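The AP-1 transcription factor genes Fos, Fosb, Fosl1, Fosl2, Jun, Junb and Jund, together with the stress-induced factor gene Atf3, were examined in the prostates of TRAMP mice given OSU-CG5 or vehicle. The members were chosen by gene name: every probe set whose platform annotation gives exactly 1 symbol, and that symbol 1 of these 8. This gave 8 genes of 18193 with a single symbol and 12 probe sets of 45037 on the array, with 2 probe sets each for Fosl1, Fosl2, Jun and Jund and 1 each for Fos, Fosb, Junb and Atf3. TRAMP mice carry a viral oncogene under the probasin promoter, which is active in prostate epithelium, and develop prostate tumours with age. Both groups were intact F1 males of a C57BL/6 TRAMP by FvB cross. The OSU-CG5 group received the compound by mouth at 100 mg/kg per day for 4 weeks, from 6 to 10 weeks of age, and the other group received vehicle for the same time. The compound is known here by its code name and has been described in earlier work as mimicking energy restriction. Total RNA came from the dorsal and lateral prostate lobes, removed 2 to 4 h after the final dosing, and each of the 3 mice per group was measured on 1 Affymetrix array.

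AP-1 is a family of dimeric factors that bind DNA through a basic region and pair through a leucine zipper. Jun proteins can pair with each other or with Fos proteins, whereas Fos proteins need a Jun partner. Fos, Fosb, Jun, Junb and Atf3 belong to the immediate early genes, whose messages appear within minutes of growth factor, stress or injury signals and decay quickly. In prostate epithelium AP-1 factors are known for responses to growth factors and stress kinases. Tissue removal and handling can also induce them.

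The promoters of 7 of the 8 genes were found in the RefSeq table for GRCm38.p6. The 5 printed here are those of the early response members, because control of these genes through short promoter elements is well described. Each window runs from 250 bases before to 50 bases after the gene's start, 5′ to 3′ on the gene's own strand. Capitals mark matches, on either strand, to TGACG, the core of the cyclic AMP response element, or to TNACNTCA, a relaxed form of the element that Jun and ATF dimers bind. The latter was chosen after these sequences had been seen. The windows lie at chr12:85473640-85473939, plus strand for Fos, chr7:19309996-19310295, minus strand for Fosb, chr4:95052173-95052472, minus strand for Jun, chr8:84978699-84978998, minus strand for Junb and chr1:191183284-191183583, minus strand for Atf3.
Fos: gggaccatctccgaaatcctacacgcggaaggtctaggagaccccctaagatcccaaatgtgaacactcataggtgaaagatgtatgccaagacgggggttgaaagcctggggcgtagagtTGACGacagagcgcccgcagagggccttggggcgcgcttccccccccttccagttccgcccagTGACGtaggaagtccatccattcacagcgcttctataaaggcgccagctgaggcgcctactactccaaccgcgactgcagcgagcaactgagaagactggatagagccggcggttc
Fosb: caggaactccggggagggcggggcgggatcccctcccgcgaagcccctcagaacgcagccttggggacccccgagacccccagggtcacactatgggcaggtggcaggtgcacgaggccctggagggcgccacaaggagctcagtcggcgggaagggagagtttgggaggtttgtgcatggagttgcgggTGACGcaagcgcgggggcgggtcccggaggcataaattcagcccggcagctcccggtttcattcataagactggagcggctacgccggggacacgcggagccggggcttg
Jun: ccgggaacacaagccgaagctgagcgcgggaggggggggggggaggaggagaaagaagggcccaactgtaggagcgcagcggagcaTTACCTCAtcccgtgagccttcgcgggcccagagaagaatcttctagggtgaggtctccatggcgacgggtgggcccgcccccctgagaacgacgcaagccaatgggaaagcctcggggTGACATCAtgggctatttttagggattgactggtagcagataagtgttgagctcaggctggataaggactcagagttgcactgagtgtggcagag
Junb: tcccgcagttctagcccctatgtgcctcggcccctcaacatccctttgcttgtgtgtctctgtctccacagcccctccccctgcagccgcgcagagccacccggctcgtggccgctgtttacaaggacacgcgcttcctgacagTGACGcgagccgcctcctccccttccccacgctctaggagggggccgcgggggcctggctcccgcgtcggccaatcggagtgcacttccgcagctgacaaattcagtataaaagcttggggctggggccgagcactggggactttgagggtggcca
Atf3: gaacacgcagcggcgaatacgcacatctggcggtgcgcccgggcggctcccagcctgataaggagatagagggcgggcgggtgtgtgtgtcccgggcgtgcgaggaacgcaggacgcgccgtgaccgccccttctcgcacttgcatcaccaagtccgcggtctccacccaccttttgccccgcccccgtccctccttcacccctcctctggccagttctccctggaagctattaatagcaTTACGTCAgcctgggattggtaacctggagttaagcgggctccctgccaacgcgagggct

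The Fos window held TGACG beginning 129 and 66 bases before the start, Fosb held 1 beginning 60 bases before it, and Junb held 1 beginning 106 bases before it. In Jun, TTACCTCA began 164 and TGACATCA 45 bases before the start. In Atf3, TTACGTCA began 10 bases before the start and included TGACG on the opposite strand. Over the 7 members with a window, 4 held TGACG and 3 held TNACNTCA, against 20.8% and 16.4% of all 32851 promoter windows of this length. Those windows were not matched for GC content, and TNACNTCA was chosen with the members' sequences in view. Whether either motif is enriched was therefore not tested. The 3 with TNACNTCA were Jun, Atf3 and Jund. The Jund window, which is not printed, had a GC content of 46.7%, against 58.7 to 68.3% in the other 6, and whether it is the promoter in use was not tested. Without it, 4 of 6 held TGACG and 2 of 6 held TNACNTCA. The 7 windows held no match to TGANTCA, the classical AP-1 site (7.81% of all windows), to TGACGTCA, the full cyclic AMP response element (1.79%), or to the CArG box bound by serum response factor (1.63%). A match is only a match of letters, and bases outside these windows were not searched.

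Expression is given on the log2 scale, so a difference of 1 is a doubling. Array medians lay between 5.30 and 5.38. Vehicle replicate 2 stood apart from the other arrays. Its Pearson correlations across probe sets with them were 0.966 to 0.981, against 0.987 to 0.995 for all other pairs. Its mean over 6 measured markers of seminal vesicle, a gland beside the prostate, was 7.91, against 3.56 to 5.08 on the other arrays. Luminal prostate markers such as Pbsn and Krt8 were high on every array. The mean over the 6 that were measured was 11.7 to 11.9 in vehicle and 11.8 to 12.2 with OSU-CG5. On OSU-CG5 replicate 3, which had the highest mean, Spink1 read 13.2, against 10.2 to 11.2 elsewhere. Vehicle replicate 2 had the lowest Msmb, 12.26 against 13.27 to 13.34, and the lowest Pbsn, 13.28 against 13.81 to 13.91. Of the 6 luminal markers, 2 were highest on that array. AP-1 differences, and medians of the lists around AP-1, that rest on vehicle replicate 2 are given with and without it. Differences of single genes outside the AP-1 group and all values for cell type markers are given with all arrays only.

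All 8 genes read lower on average with OSU-CG5 by their brightest probe set, but no probe set passed the test. The median log2 difference over the 8 genes was -0.37, beside -0.09 over all 18193 genes. A difference below 0 was common on these arrays, and 65.7% of all genes had one. After Benjamini-Hochberg adjustment in limma, 0 of the 12 AP-1 probe sets passed the threshold of 0.05, as did 0.0% of all 45037. At an unadjusted p under 0.05, 3 of the 12 were lower and 0 higher, against 6.8% lower and 9.63% higher among all probe sets. The 3 were those of Fosb, Jund and Fosl1. In 6 of the 12 probe sets every OSU-CG5 array read below every vehicle array, against 11.9% of all probe sets. Without vehicle replicate 2 the median over the 8 genes was -0.18, beside -0.05 over all genes in that fit. The count lower at an unadjusted p under 0.05 was then 1, that of Fosb, against 5.55% of all probe sets. The count of probe sets without overlap was again 6 of the 12, against 16.0% of all. Leaving out an array cannot lower this count. In bulk tissue, fewer cells of a type and less RNA per cell cannot be told apart.

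**Figure D1:**
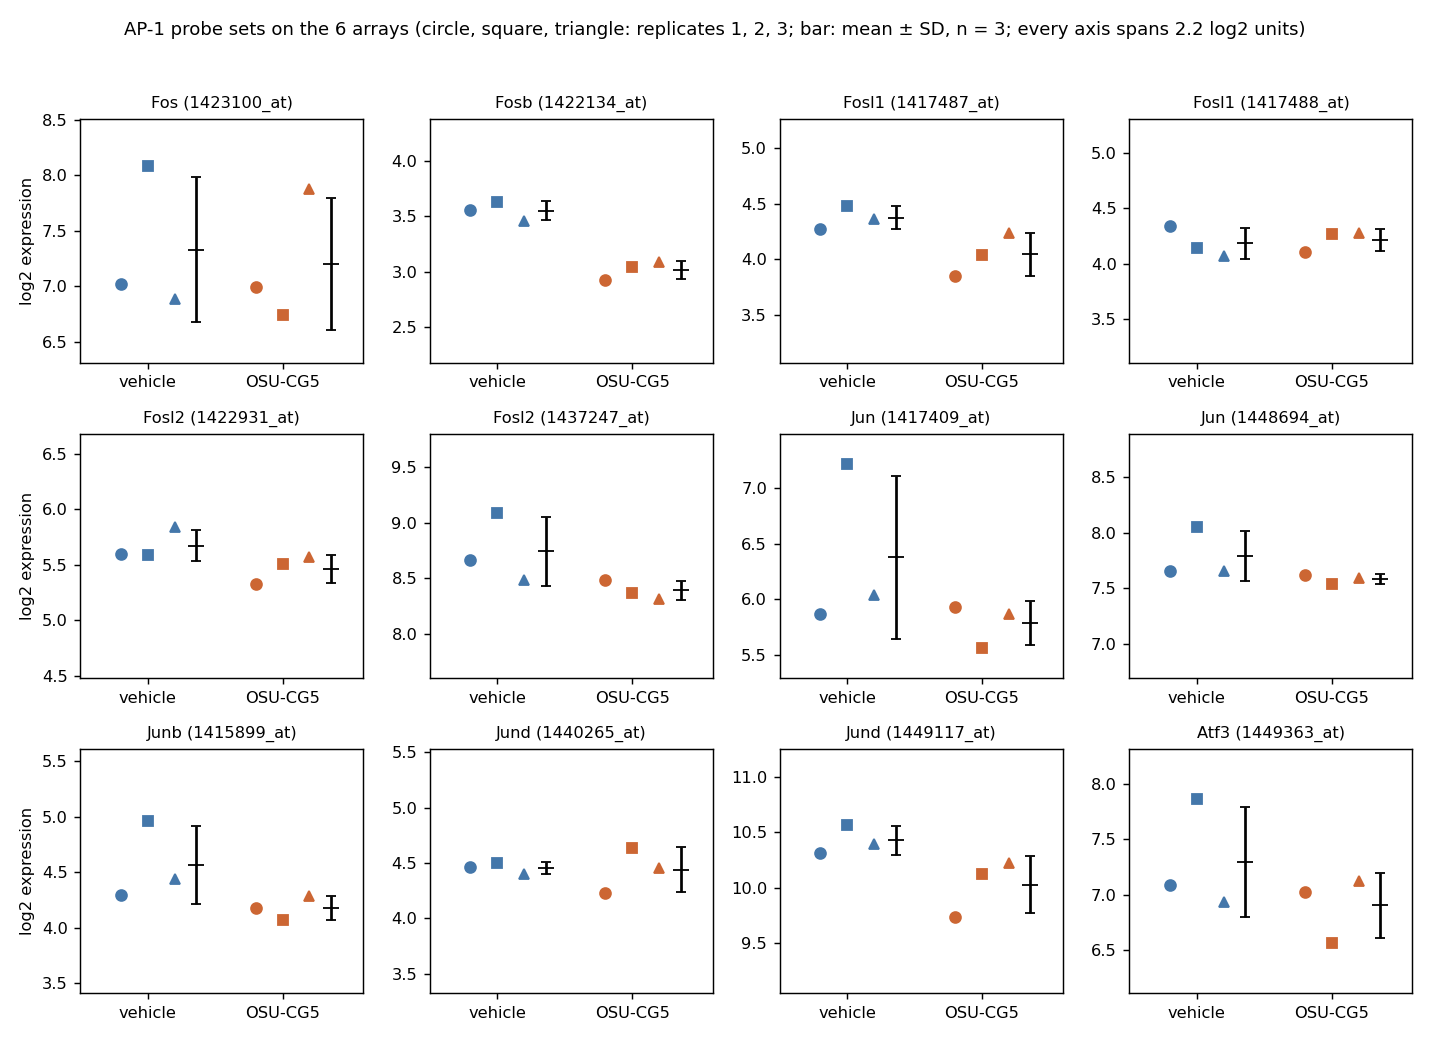
Log2 expression of the 12 AP-1 probe sets on each array, vehicle in blue and OSU-CG5 in orange, with the mean and SD of each group (n = 3) beside the points; axes differ in position but span the same range. Vehicle replicate 2, the square among the vehicle points, is the highest array for 9 of the 12 probe sets.

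Fos is the prototype of the family and pairs with Jun proteins to activate transcription. Its probe set read 7.02, 8.08 and 6.89 on vehicle replicates 1, 2 and 3, and 6.99, 6.74 and 7.88 on OSU-CG5 replicates 1, 2 and 3. One mouse of each group was thus about 1 log2 unit above its group mates, and the groups overlapped. The means were 7.33 ± 0.65 for vehicle and 7.20 ± 0.60 for OSU-CG5 (SD, n = 3), a log2 difference of -0.13 (SE 0.37, 95% interval -0.97 to 0.72; limma adjusted p = 0.881). The sign was not stable, since the difference was 0.25 without vehicle replicate 2 and 0.15 with array weights. Leaving out OSU-CG5 replicate 2 gave 0.10, and leaving out OSU-CG5 replicate 3 gave -0.47. The SD of Fos over the 6 arrays exceeded that of 92.6% of those whose mean reached log2 6. At this spread between mice no difference in Fos was detectable.

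Fosb encodes a Fos relative that is also induced early, and a short splice form of it accumulates with repeated stimulation. It read 3.56, 3.63 and 3.46 in vehicle and 2.93, 3.05 and 3.09 with OSU-CG5. The groups did not overlap, and the arrays within each group lay close together. The means were 3.55 ± 0.09 and 3.02 ± 0.08 (SD, n = 3), a log2 difference of -0.53 (SE 0.11, 95% interval -0.79 to -0.27; limma unadjusted p = 0.0015, adjusted p = 0.150). This was the smallest p among the 12. The signal was weak, at the 13.5 percentile of all probe sets by mean. The difference did not rest on vehicle replicate 2, and with any 1 array left out it lay between -0.58 and -0.48.

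Fosl1 and Fosl2 encode Fra-1 and Fra-2, Fos relatives without the strong activation region of Fos. Of the pair of Fosl1 probe sets, 1417487_at read 4.28, 4.48 and 4.36 in vehicle and 3.85, 4.04 and 4.24 with OSU-CG5, without overlap. Its log2 difference was -0.33 (SE 0.14; limma adjusted p = 0.287). The other, 1417488_at, read 4.34, 4.14 and 4.07 in vehicle and 4.10, 4.27 and 4.28 with OSU-CG5, a difference of 0.03 (SE 0.12). The 2 Fosl1 probe sets therefore had opposite signs, both dim, at the 29.1 and 29.0 percentiles of signal on the array. For Fosl2, the bright probe set 1437247_at read 8.66, 9.09 and 8.48 in vehicle and 8.48, 8.37 and 8.31 with OSU-CG5. Vehicle replicate 3 and OSU-CG5 replicate 1 were level, and the log2 difference was -0.35 (SE 0.17; limma adjusted p = 0.332), or -0.18 without vehicle replicate 2. The dimmer probe set 1422931_at read 5.60, 5.58 and 5.84 against 5.32, 5.51 and 5.57, with no overlap but only a narrow gap, and differed by -0.21 (SE 0.13).

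Jun, the main partner of Fos and a target of the Jun N-terminal kinases, had 2 probe sets. The brighter, 1448694_at, read 7.66, 8.05 and 7.66 in vehicle and 7.62, 7.53 and 7.59 with OSU-CG5. All OSU-CG5 arrays lay just below the vehicle arrays, and the log2 difference was -0.21 (SE 0.14, 95% interval -0.52 to 0.11; limma adjusted p = 0.479), or -0.08 without vehicle replicate 2. The other, 1417409_at, read 5.87, 7.22 and 6.04 in vehicle and 5.93, 5.56 and 5.86 with OSU-CG5. It was below log2 6 on 4 of the 6 arrays, with a mean over all 6 of 6.08. Here vehicle replicate 2 stood 1.27 above the mean of the other vehicle arrays, against 0.39 on the brighter probe set. The difference of -0.59 on the log2 scale (SE 0.32; limma adjusted p = 0.388) was the largest of the 12 and became -0.17 without that array. Both Jun probe sets thus put the same mouse highest, at different sizes.

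Junb, a partner that often opposes Jun in growth control, read 4.29, 4.96 and 4.44 in vehicle and 4.18, 4.07 and 4.29 with OSU-CG5. The groups were separated by a few thousandths, between vehicle replicate 1 and OSU-CG5 replicate 3. The log2 difference was -0.38 (SE 0.18, 95% interval -0.80 to 0.03; limma adjusted p = 0.331), and -0.19 without vehicle replicate 2. Jund, the most constantly expressed Jun gene and a brake on proliferation in several cell types, was among the brightest signals with 1449117_at, at the 96.3 percentile. That probe set read 10.3, 10.6 and 10.4 in vehicle and 9.74, 10.1 and 10.2 with OSU-CG5, without overlap. The means were 10.43 ± 0.13 and 10.03 ± 0.26 (SD, n = 3), a log2 difference of -0.40 (SE 0.15, 95% interval -0.76 to -0.05; limma unadjusted p = 0.0311, adjusted p = 0.264), or 1.32-fold lower. OSU-CG5 replicate 1 was the lowest, and without it the difference was -0.26. The dim Jund probe set 1440265_at read 4.46, 4.50 and 4.40 against 4.23, 4.63 and 4.46, a difference of -0.02 (SE 0.13).

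Atf3 encodes a bZIP factor induced by amino acid shortage, endoplasmic reticulum stress and DNA damage, which pairs with Jun proteins and often represses its targets. It read 7.08, 7.86 and 6.94 in vehicle and 7.02, 6.57 and 7.12 with OSU-CG5. Vehicle replicate 2 was the highest and OSU-CG5 replicate 2 the lowest, and the other 4 arrays lay within 0.2 of each other. The means were 7.29 ± 0.50 and 6.90 ± 0.30 (SD, n = 3), a log2 difference of -0.39 (SE 0.25, 95% interval -0.97 to 0.19; limma adjusted p = 0.463). Without vehicle replicate 2 the difference was -0.11.

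**Figure D2:**
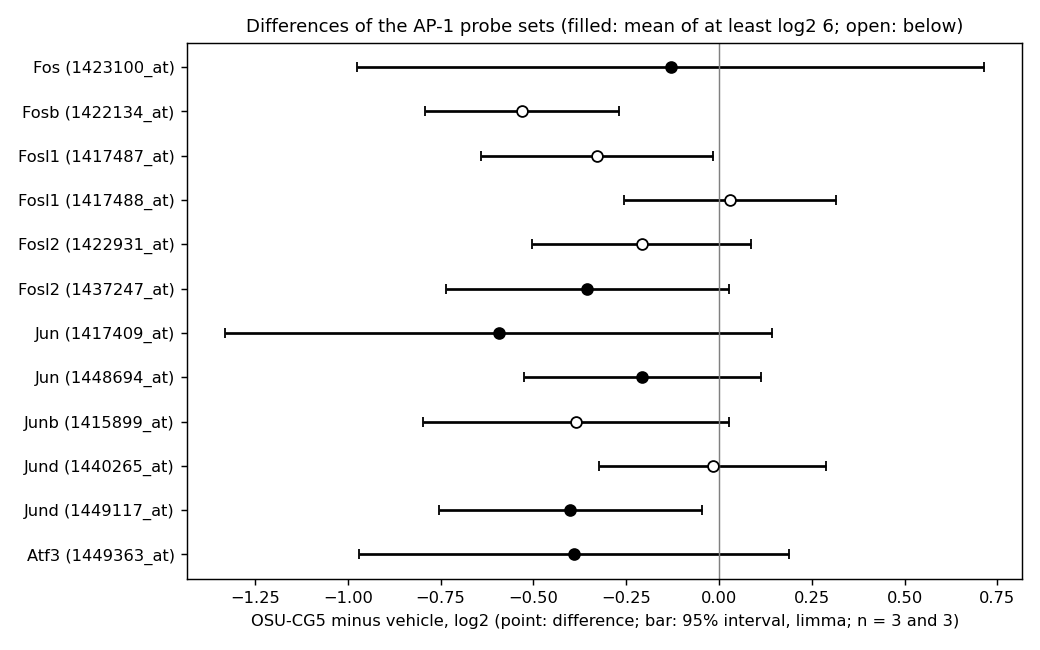
OSU-CG5 minus vehicle in log2 for the 12 AP-1 probe sets with 95% intervals from limma; filled points mark means of log2 6 or more. The intervals of Fosb, 1 Fosl1 probe set and the bright Jund probe set lie below 0, and none of the 12 passed adjustment over all probe sets.

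Where a gene had 2 probe sets, the differences agreed in sign for Fosl2, Jun and Jund and disagreed for Fosl1. For Jund and Fosl1 the sign of 1 probe set was not stable. Over the alternative analyses, Jund 1440265_at ranged from -0.11 to 0.09 and Fosl1 1417488_at from -0.03 to 0.13. The gap between the paired differences was 0.15 for Fosl2, 0.36 for Fosl1, 0.38 for Jund and 0.39 for Jun. The last 3 gaps were as large as most of the differences themselves.

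The members shared 1 feature that the choice by name did not use, which was the array on which they were highest. Vehicle replicate 2 was the highest array for all 8 genes by their brightest probe set and for 9 of the 12 probe sets, against 38.4% of all genes and 32.5% of all probe sets. Its excess over the mean of the other vehicle arrays was 1.13 for Fos, 0.85 for Atf3, 0.59 for Junb, 0.52 for Fosl2, 0.39 for Jun, 0.21 for Jund, 0.16 for Fosl1 and 0.12 for Fosb (log2, brightest probe set). The mean over the 8 genes was 6.61, 7.09 and 6.58 in vehicle and 6.35, 6.31 and 6.59 with OSU-CG5. OSU-CG5 replicate 3 therefore read between the lower vehicle arrays on this mean, and its Fos was the second highest of the 6.

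**Figure D3:**
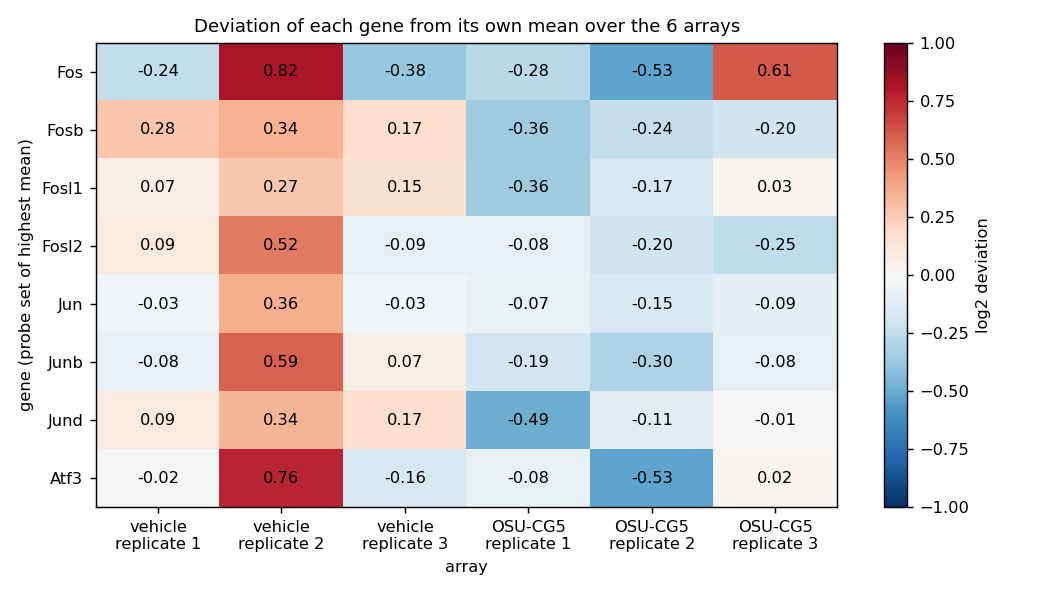
Deviation of each AP-1 gene (brightest probe set, rows) from its own mean over the 6 arrays (columns), in log2. Vehicle replicate 2 is the highest column for all 8 genes, from 0.27 for Fosl1 to 0.82 for Fos, and Fos alone is also high on OSU-CG5 replicate 3, at 0.61.

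Markers of other cells were compared on the same arrays, and none passed limma's adjusted threshold. By unadjusted p under 0.05, 5 of 6 endothelial, 4 of 7 macrophage, 4 of 6 skeletal muscle and 3 of 5 lymphocyte markers were lower. The share over all genes was 8.43%. In the order named, the medians of these lists were -0.38, -0.54, -0.67 and -0.34, beside -0.37 for the AP-1 genes. No seminal vesicle or luminal marker was lower at that threshold, and the luminal median was 0.04. The mean of 7 macrophage markers was 6.88, 7.37 and 6.84 in vehicle and 6.69, 6.43 and 6.42 with OSU-CG5, and all 7 were highest on vehicle replicate 2. The 6 endothelial markers ranged from 5.59 to 5.87 in vehicle and from 5.35 to 5.43 with OSU-CG5. The vehicle range, then that with OSU-CG5, was 4.97 to 5.09 and 4.68 to 4.83 for 5 lymphocyte markers, and 5.99 to 6.70 and 5.03 to 5.88 for 6 skeletal muscle markers. In the same order, the 6 fibroblast markers ranged from 8.83 to 9.02 and from 8.39 to 9.07, the 6 smooth muscle markers from 9.53 to 9.74 and from 9.28 to 9.56. Means of 4 basal epithelial markers were 5.92 to 6.05 and 5.64 to 6.11, and those of 3 neuroendocrine markers 4.72 to 4.87 and 4.68 to 5.16. The groups overlapped for these last 4 lists. Of their markers, 2 of 6 fibroblast, 3 of 6 smooth muscle and 1 of 4 basal ones were lower by unadjusted p under 0.05. In the neuroendocrine list 0 were lower and 1 of 3 was higher, where 5.4% of all genes were higher. As a measure of RNA quality, the 3′ control probe set of Gapdh exceeded its 5′ one by 2.39 ± 0.32 in the vehicle group and by 2.89 ± 0.16 in the OSU-CG5 group (SD, n = 3 each). For Actb the excess was 2.99 ± 0.13 and 3.03 ± 0.07. The part of these in the AP-1 differences was not tested.

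**Figure D4:**
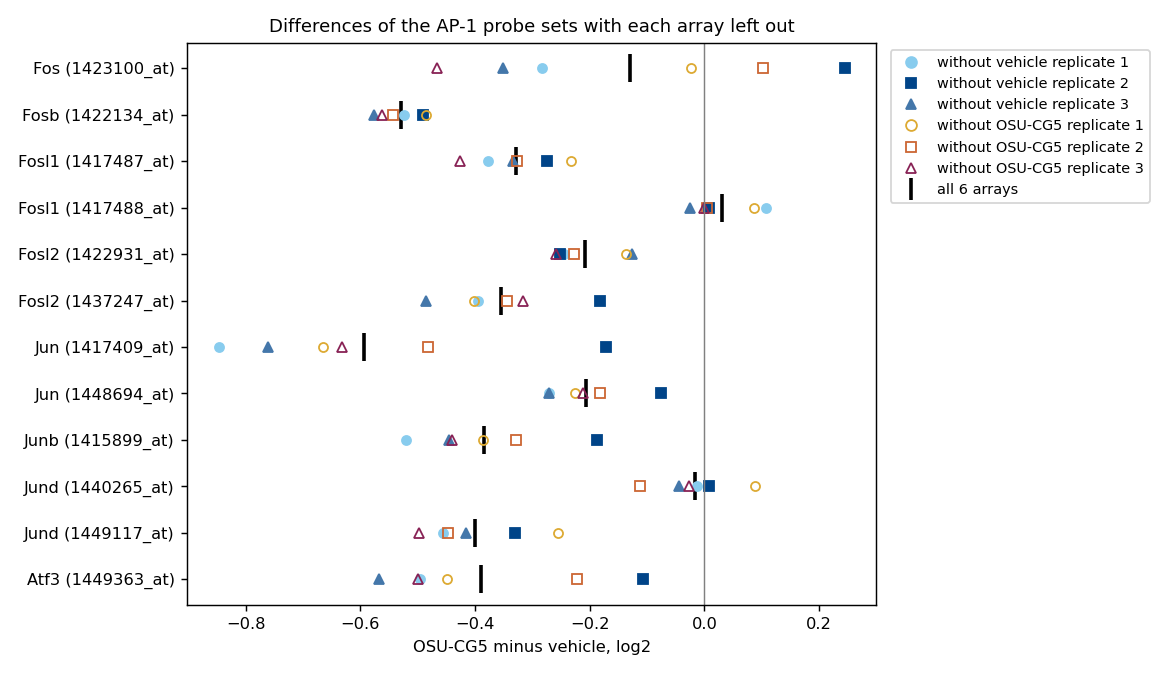
OSU-CG5 minus vehicle in log2 for each AP-1 probe set with all arrays (black bar) and with each array left out (symbols). Without vehicle replicate 2 (dark blue squares) the differences of Fos, Jun, Junb, Atf3 and the bright Fosl2 probe set move toward or past 0, while Fosb stays at -0.49.

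By likeness of profile, the genes nearest to Fos were not AP-1 genes. Likeness was the root mean square difference between profiles over the 6 arrays, each centred on its own mean, among 9627 genes whose mean reached log2 6. Fosb, Fosl1 and Junb did not reach it and were not compared. The measure is not scaled, so it also depends on how far a gene varies between arrays. Enpp3, Dclk3 and Slc2a12 were nearest to Fos, at 0.12, 0.14 and 0.17, and Atf3 ranked 22 at 0.28. All 3 read high on both vehicle replicate 2 and OSU-CG5 replicate 3. Krt23, Vamp5 and Abcb6 were nearest to Atf3, at 0.07, 0.11 and 0.11. Tbcd, Atg4b and Mrpl17 were nearest to Jun, each at 0.02. Of the members compared, Fosl2 was the nearest to Jun, at rank 1100.

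Among the factors that pair with AP-1 proteins, members of the Maf and Batf families read lower or higher, none past adjustment. By unadjusted p under 0.05, 5 of 12 measured partner genes were lower and 1 was higher, against 8.43% lower and 5.4% higher over all genes, and 0 passed limma's adjusted threshold. The median was -0.17. Mafk, a small Maf protein without an activation region, read 8.43, 8.60 and 8.21 in vehicle and 7.88, 7.90 and 7.96 with OSU-CG5 (log2 difference -0.50, SE 0.13; limma adjusted p = 0.173). Its relative Mafg read 6.06, 6.21 and 6.39 against 6.86, 6.61 and 6.74, a log2 difference of 0.52 (SE 0.13), while the other Mafg probe set differed by -0.10 (SE 0.11). Batf3, a factor of dendritic cells, read 6.25, 6.55 and 6.39 against 5.84, 6.15 and 5.87, for a log2 difference of -0.45 (SE 0.14).

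Upstream of AP-1, the kinases of the stress and growth factor cascades had no common direction. The 17 measured genes had a median of 0.01 and 8 were below 0, where 65.7% of all genes were. By unadjusted p under 0.05, 2 were lower and 1 was higher, against 8.43% and 5.4% of all genes, while 0 passed adjustment. These 3 were the serum response factor partners Elk1, Elk3 and Elk4, with log2 differences of -0.34 (SE 0.14), -0.37 (SE 0.14) and 0.31 (SE 0.11). The other Elk4 probe sets differed by -0.21, -0.16 and -0.33, opposite to the brightest one. Those of Elk1 differed by -0.20 and 0.03, and those of Elk3 by -0.07, -0.29 and 0.16, so signs were mixed there too. Among 14 genes that switch AP-1 off or govern its turnover the median was -0.14, or -0.08 without vehicle replicate 2. By unadjusted p under 0.05, 3 were lower and 1 was higher, against 8.43% and 5.4% of all genes, and 0 passed adjustment. Dusp6, a phosphatase of the ERK kinases, differed by -0.43 (SE 0.15) at a low signal. Dusp10 and Dusp16, which act on stress kinases, differed by -0.27 (SE 0.11) and 0.40 (SE 0.17), and their other probe sets by -0.48 (SE 0.11) and 1.15 (SE 0.23). Itch, a ubiquitin ligase that targets Jun proteins, had the largest difference of these 14, at 1.41 (SE 0.62; limma adjusted p = 0.305). Vehicle replicate 2 read 4.35 for Itch, while the remaining arrays read 6.55 to 7.61, so the size of this difference rests largely on that array. Itch had 4 probe sets, of which only the brightest is given. Dusp1, an early response phosphatase, read 8.18, 8.50 and 8.13 in vehicle and 8.19, 8.15 and 8.14 with OSU-CG5, level apart from vehicle replicate 2.

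Downstream, known AP-1 target genes had a median of -0.29 over 18 measured genes, beside -0.09 over all genes. Of the 18, 15 were below 0, where 65.7% of all genes were. None of the 18 had an unadjusted p under 0.05, against 8.43% lower and 5.4% higher over all genes, and 0 passed adjustment. The smallest p-values belonged to the haem-degrading enzyme Hmox1, the matrix protein Tnc and the protease Mmp3, with log2 differences of -0.32 (SE 0.14), -0.33 (SE 0.15) and -0.30 (SE 0.14). All 3 were dim, below log2 6 on every array, and the other Tnc probe set differed by -0.12 (SE 0.11). Without vehicle replicate 2 the target median was -0.20, beside -0.05 over all genes.

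The other immediate early genes, induced by the same signals as Fos, had a median of -0.26 over 18 genes. Of these, 16 were below 0, where 65.7% of all genes were. By unadjusted p under 0.05, 5 were lower and 0 were higher, against 8.43% and 5.4% of all genes, and 0 passed adjustment. Rhob, a small GTPase, read 7.73, 8.36 and 7.75 in vehicle and 7.51, 7.12 and 7.20 with OSU-CG5 (log2 difference -0.67, SE 0.20; limma adjusted p = 0.192). Klf6 and Ier5 differed by -0.34 (SE 0.13) and -0.46 (SE 0.18). Egr1, a zinc finger factor often measured beside Fos, read 9.68, 9.97 and 9.16 against 9.43, 8.81 and 9.59, with overlap and a difference of -0.32 on the log2 scale (SE 0.25; limma adjusted p = 0.543). Vehicle replicate 2 was the highest array for 12 of the 18, against 38.4% of all genes, and without it the median was -0.15.

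The stress factors that act with Atf3 gave a median of -0.24 over 10 genes. By unadjusted p under 0.05, 1 was lower, against 8.43% of all genes, and 0 passed adjustment. Trib3, Ppp1r15a and Cebpb differed by -0.37 (SE 0.16), -0.25 (SE 0.12) and -0.35 (SE 0.18). Atf4, the factor that induces Atf3 when amino acids are short, differed by 0.02 (SE 0.15), and its target Ddit3 by -0.04 (SE 0.16). Without vehicle replicate 2 the median was -0.12.

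**Figure D5:**
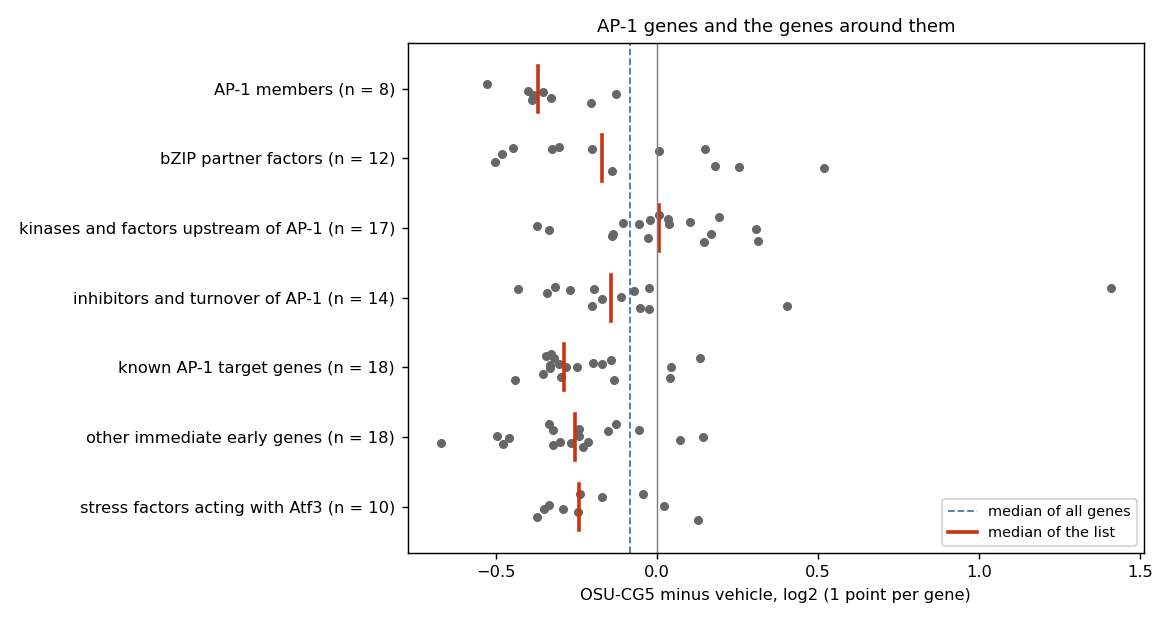
OSU-CG5 minus vehicle in log2 for each gene (points, brightest probe set) of the AP-1 group and the 6 lists around it, with list medians in red and the median of all genes dashed in blue. The AP-1 genes have a median of -0.37, the upstream kinases one of 0.01, and all genes one of -0.09.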

How the data were processed

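The authors deposited 1 log2 value for every probe set and array. The submitters' processing notes name RMA, and the sources used here give neither its software nor a version. RMA makes the arrays share a distribution, so a broad shift in 1 direction is partly removed. Raw intensities were not used here. Of 45101 probe sets, 64 Affymetrix controls were left out. Groups follow the source labels and sample titles, which give CG5 for all treated samples. The descriptions of OSU-CG5 replicates 2 and 3 carry other compound numbers, different from each other, and this conflict was not resolved. Symbols came from the platform annotation, and for gene lists the brightest probe set (highest mean over the arrays) stood for each gene.

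OSU-CG5 minus vehicle was tested with limma (3.58.1, R 4.3.3) lmFit and eBayes over all 45037 probe sets, Benjamini-Hochberg at 0.05, with no filter or covariate. SE and 95% intervals are limma's moderated ones. The fit was tested on simulated data. The number of arrays limits the precision. Alternatives were low-value filters at log2 6 or 4, array centring, repeated quantile or cyclic loess normalization, other variance models, array weights, other probe set choices and each array left out. The members and lists were chosen with earlier results of these data known. Named genes were the members, the 3 smallest p-values of each list, Egr1, Dusp1 and the 3 genes most like Fos, Jun and Atf3. Atf4, Ddit3 and Itch were named after their values were seen. Listed genes without a matched probe set were not analysed here.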

Additional observations from a re-analysis of the deposited data

How the results depend on the processing

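No AP-1 probe set passed limma's adjusted threshold under any of the 16 alternatives run, and the smallest adjusted p, 0.0522, was that of Fosb. Of all probe sets, 1.83% passed with array weights, 1.97% without vehicle replicate 3, 0.888% without vehicle replicate 2 and 0.0% in the other alternatives on probe sets. The count lower at an unadjusted p under 0.05, which was 3 of 12, was 1 of 6 with a minimum mean of log2 6 (5.06% of all probe sets in that fit) and 1 of 12 without variance moderation (6.06%). With 1 array left out it ranged from 1 to 5: it was 1 without OSU-CG5 replicate 1 (5.0% of all) or vehicle replicate 2 (5.55%), and 5 without vehicle replicate 1 (5.83%). The median over the 8 genes stayed below 0 throughout, from -0.45 to -0.18, both ends from leaving out 1 array. The log2 difference of Fos ranged from -0.47 to 0.25 and changed sign without vehicle replicate 2 (0.25), with array weights (0.15) and without OSU-CG5 replicate 2 (0.10); the cause was not tested. Fosb ranged from -0.58 to -0.46. No paired analysis was possible because the labels give no replicate numbers that pair mice across groups. Dim probe sets, 6 of the 12 under log2 6, limit what can be said of Fosb, Fosl1 and Junb.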
